A study of Mus musculus with 5 samples.

Results

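Integrin beta 1 (Itgb1) and the alpha subunits that pair with it were followed through 5 RNA libraries of mouse embryonic pituitary. The genes were taken by name from the all-gene table, with the longest region where a name had several. Of the 10 genes chosen, 9 were listed among 20097 gene names, and the collagen receptor subunit Itga1 is not analysed here. All libraries came from e12.5 embryos on a B6;129 background. The 3 control (WT) libraries, numbered 9, 10 and 12, carried Itgb1 f/f, that is, floxed Itgb1 alleles. The 2 KO libraries, numbered 13 and 16, carried Itgb1 f/f and the transgene Pitx1-cre, so that every embryo held the floxed alleles and only the KO embryos held Cre. The Pitx1 promoter is active in oral ectoderm and the pituitary epithelium derived from it, and cells outside that domain keep an intact gene. The labels call the libraries separate biological replicates of littermate embryos.

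Integrins are heterodimers of 1 alpha and 1 beta chain that span the membrane and bind extracellular matrix outside the cell and the actin cytoskeleton inside it. The beta 1 chain pairs with the largest group of alpha chains, and the alpha chain sets the ligand: laminins for alpha 3, 6 and 7, fibronectin and other RGD proteins for alpha 5, 8 and V, and fibronectin variants, VCAM1, tenascin or osteopontin for alpha 4 and 9. In an embryonic epithelium the laminin receptors hold cells to the basement membrane, while the fibronectin receptors are prominent in mesenchyme and vessels.

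Levels, called tags below, are scaled to 10000000 total tags in each library. Reads recovered over the listed genes numbered 5445240 to 6143263 in the WT libraries, 5507288 in KO 13 and 4480809 in KO 16. Background, taken from olfactory and vomeronasal receptor genes that most tissues do not use, was 0.159 to 0.396 tags per kilobase in the WT libraries, 0.480 in KO 13 and 1.498 in KO 16. The ribosomal precursor Rn45s took 16.8% to 23.5% of all tags in the WT libraries, 14.2% in KO 13 and 8.9% in KO 16, lower in both KO libraries, and these tags count in the total that levels are scaled to. By background the library labelled KO 16 stood apart from the other 4 before any integrin was considered, and results that rest on it are given for each library. The median log2 change of all 19313 genes tested was 0.97, KO over WT. Changes are therefore also given relative to that median gene, which the p-values do not test. A second scale, called corrected levels below, subtracts each library's background and applies TMM factors, a trimmed-mean scaling between libraries; the median gene was at -0.09 there. All 10 markers of pituitary epithelial progenitors, among them Six6, Pitx1 and Hesx1, carried tags in every library, as did all 8 mesenchymal markers. Background alone can give tags, but in the WT mean Six6 had 27.64, Pitx1 22.90 and the mesenchymal gene Col3a1 11.27 tags per kilobase, well above it. The tissue is therefore mixed, and in such bulk samples fewer cells of a type cannot be told apart from less RNA per cell.

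The targeted gene came first. Itgb1 (mm9 chromosome 8, 131210354 to 131257479, a region of 47.1 kb that spans introns and exons) had 272.73, 426.36 and 430.91 tags in WT libraries 9, 10 and 12, 446.36 in the library labelled KO 13 and 186.36 in the library labelled KO 16. The library labelled KO 16 lay below every WT library, and the library labelled KO 13 lay above every one. The 205 reads of KO 16 give an exact Poisson interval (95%) of 161.72 to 213.7 tags, and the 491 reads of KO 13 one of 407.75 to 487.65. These intervals cover counting error only, and they include background. The background equalled 37.9% of the Itgb1 tags in KO 16, 5.1% in KO 13 and 1.7% to 4.5% in the WT libraries. The WT mean was 376.67 ± 90.04 (SD, n = 3). The fitted log2 change was -0.35 ± 0.54 (SE), with an adjusted p of 0.621 in limma. The 2-sided exact permutation p, from the 10 ways to label 2 of 5 libraries as KO, was 0.7, and 0.1 is the lowest it can reach. Relative to the median gene the change was -1.32.

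On the corrected scale Itgb1 was at 403.01, 373.76 and 449.67 in the WT libraries, 281.82 in KO 13 and 115.56 in KO 16. Both KO libraries then lay below every WT library, at 68.9% and 28.3% of the WT mean of 408.8 ± 38.29 (SD, n = 3). On this scale both KO libraries lay below every WT library for 8.3% of the 14513 genes tested. The exact permutation test gave p = 0.1, which is the smallest this design allows. The order of KO 13 thus turned with the scale, and its Itgb1 level does not check its label. The region covers the whole gene, so this level does not isolate the floxed part either. KO 13 and KO 16 stand throughout for the libraries labelled so.

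**Figure D1:**
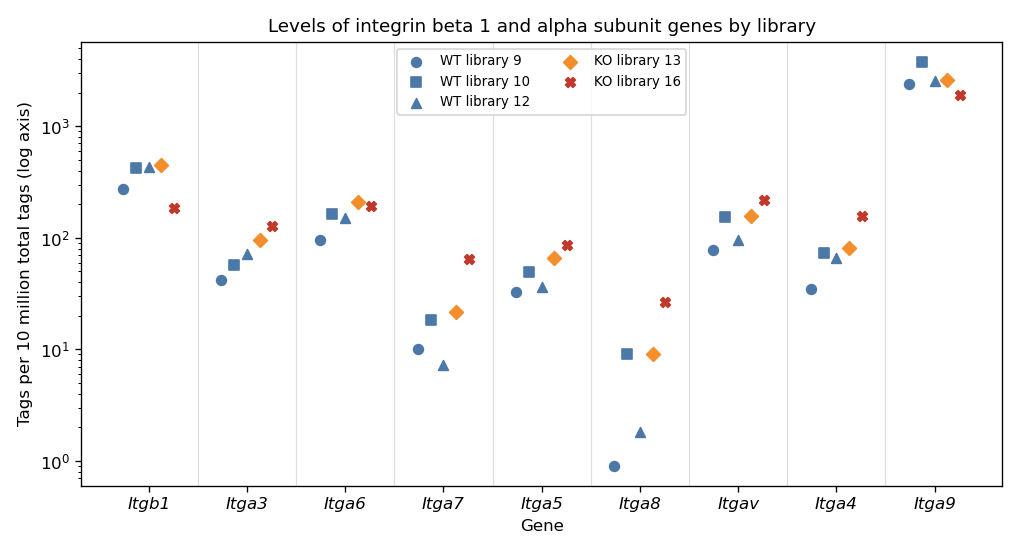
Tags per 10000000 total tags (log axis) for the 9 listed genes; each point is 1 library, blue for WT, orange for KO 13 and red for KO 16. Itgb1 and Itga9 are the genes in which KO 16 lies below every WT library, at 186.36 and 1911.82 tags.

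A rank within a library does not depend on how the library is scaled, and a background that is even per kilobase does not move it above the floor of 0. By tags per kilobase, Itgb1 stood at percentile 94.6 to 95.6 of all gene names in the 3 WT libraries. It stood at 91.4 in KO 13 and 84.9 in KO 16. Both KO libraries were below the narrow WT range, KO 16 farther than KO 13. By this measure both KO libraries lay below every WT library for 9.92% of the 19313 genes, and 3 of the 9 integrin genes (Itgb1, Itga6 and Itgav) were among them. For KO 13 alone Itga9 joined these 3, against 23.3% of all genes below, and for KO 16 alone Itga4 did, against 41.9%. In the other direction both KO libraries lay above every WT library for Itga7 only, against 9.32% of all genes. KO 13 alone was above for the same single gene, against 21.9%, and KO 16 alone for Itga3, Itga5, Itga7 and Itga8, against 35.5%.

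**Figure D2:**
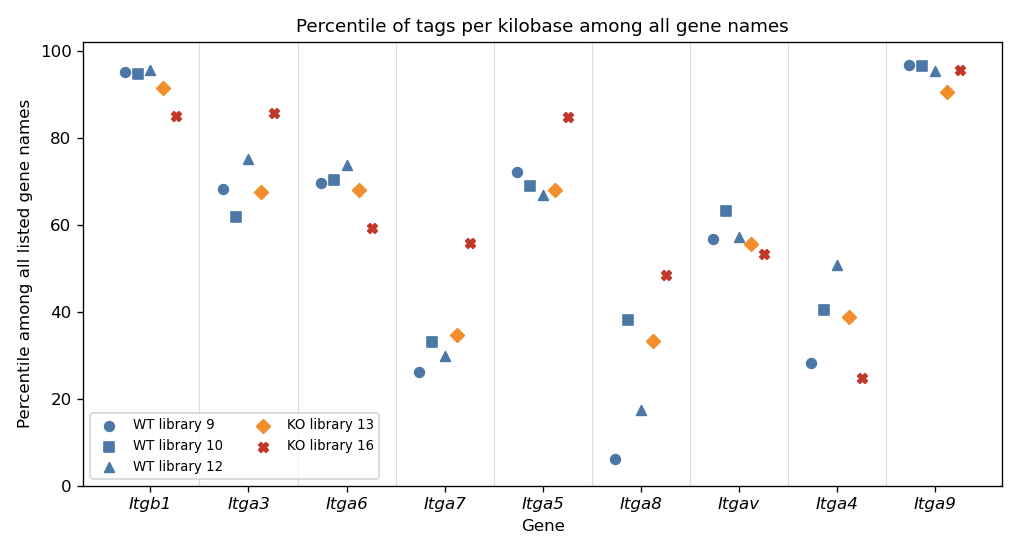
Percentile of tags per kilobase among all listed gene names, for each integrin gene and library; points as WT (blue), KO 13 (orange) and KO 16 (red). Itgb1 lies at 94.6 to 95.6 in WT and at 91.4 and 84.9 in the KO libraries, while Itga7 lies at 26.1 to 33.1 in WT and at 34.7 and 55.8 in the KO libraries.

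Levels between genes can be compared per kilobase of region. In the WT libraries Itga9 had 9.89 ± 2.51 (SD, n = 3) tags per kilobase and Itgb1 7.99 ± 1.91. Their WT ranges overlapped, and Itga9 was the higher of the pair in 3 of 5 libraries. Every other subunit was several times lower. Itga6 followed with 1.98 ± 0.53, Itga5 with 1.82 ± 0.40, Itga3 with 1.81 ± 0.48 and Itgav with 1.33 ± 0.49, and neighbours among these 4 overlapped in their WT values. Itga6 lay below Itgb1, and Itga4 below Itgav, in all 5 libraries and without overlap of the WT values. Itga4 had 0.75 ± 0.27 tags per kilobase, Itga7 0.50 ± 0.24 and Itga8 0.38 ± 0.44, again with overlapping neighbours. These last 3 were close to the background: it equalled 51.6% to 61.3% of the Itga7 tags and 18.5% to 57.6% of the Itga4 tags in the WT libraries. In KO 16 the background equalled 53.3% of the tags of Itga6, 54.9% of Itga7, 56.1% of Itgav and 58.4% of Itga8.

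Because the regions hold introns, a level per kilobase mixes mature and unspliced RNA. Region length matched the gene length in GENCODE M21 (GRCm38) to between 96.4% and 99.7% for 7 of the 9 genes. The Itga6 region was 61.1% as long as that gene. The Itga8 region was only 5.3% as long (10.3 against 195.3 kb), so its value does not measure the gene as a whole. The only listed gene whose region overlapped one of the 9 was Cerkl, which shares 0.2 kb with Itga4.

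**Figure D3:**
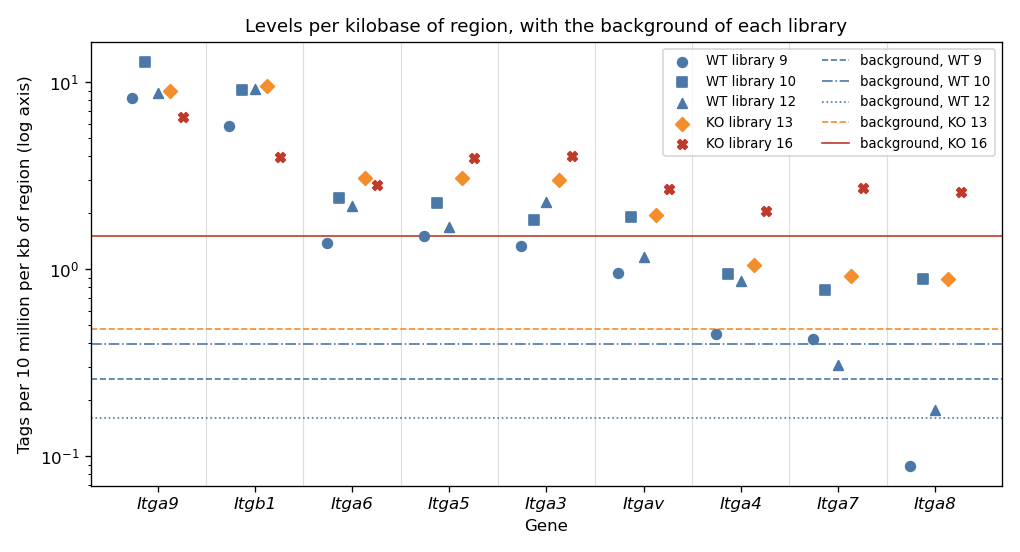
Tags per 10000000 per kilobase of region (log axis), genes ordered by their WT mean; points are libraries and horizontal lines the background of each library. Itga9 and Itgb1 stand above the other subunits in the WT libraries. The KO 16 background of 1.498 lies near the KO 16 values of Itga4 (2.05), Itga8 (2.57), Itgav (2.67), Itga7 (2.73) and Itga6 (2.81).

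Itga9 encodes the alpha 9 chain, a receptor chain for tenascin C, osteopontin and the fibronectin EIIIA segment that is known for its part in lymphatic valves. Its region (mm9 chromosome 9, 118516627 to 118810121) had 2398.18, 3748.18 and 2563.64 tags in the WT libraries, 2613.64 in KO 13 and 1911.82 in KO 16. KO 13 was inside the WT range and KO 16 below it. Its log2 change was -0.35 ± 0.62 (SE; limma, adjusted p = 0.672), or -1.32 relative to the median gene, the same relative value as Itgb1. The corrected level of Itga9 was 3592.17, 3329.59 and 2673.02 in the WT libraries, 1644.57 in KO 13 and 1469.61 in KO 16. Both KO libraries were then below every WT library, at 51.4% and 46.0% of the WT mean. Its percentile was 95.3 to 96.7 in the WT libraries, 90.6 in KO 13 and 95.5 in KO 16, so that by rank only KO 13 was below the WT range. Itga9 is listed as lower in the authors' deposited table of changes, with a log2 fold change of -0.21 and a p-value of 3.48e-03.

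Set against each other within a library, these genes need no scaling factor. The ratio of Itgb1 to Itga9 per kilobase, background subtracted, was 0.699, 0.699 and 1.05 in the WT libraries, 1.07 in KO 13 and 0.49 in KO 16. KO 13 thus had about as much Itgb1 per Itga9 as WT library 12, and KO 16 had less than any WT library. Against the sum of the other 7 alpha genes, Itgb1 was at 1.23, 1.06 and 1.19 in the WT libraries, 0.852 in KO 13 and 0.239 in KO 16. Both KO libraries were below every WT library in this ratio, also without background subtraction (0.825 to 1.06 in WT, 0.681 and 0.19). Itga9 made up 53.2% to 63.7% of the background-subtracted alpha signal per kilobase in the WT libraries, 44.4% in KO 13 and 32.8% in KO 16. These ratios were chosen after the data were seen and are given as values without a test.

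Among the laminin receptor chains, Itga6 lay lower and Itga7 higher than the median gene, and neither passed the test. Itga6 pairs with beta 1, and with beta 4 in hemidesmosomes. Its region (mm9 chromosome 2, 71625940 to 71694815) had 95.45, 164.55 and 150 tags in the WT libraries, 210 in KO 13 and 193.64 in KO 16. Both KO libraries were above the WT libraries before correction, as for 50.2% of the 19313 genes tested. Its corrected level was 120.07, 125.85 and 147.66 in WT, 117.67 in KO 13 and 90.29 in KO 16. KO 13 was then just under the lowest WT library and KO 16 farther under it. The relative log2 change was -0.37 (limma, adjusted p = 0.419).

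Itga7, the laminin receptor chain of skeletal and smooth muscle, had 10, 18.18 and 7.27 tags in the WT libraries, 21.82 in KO 13 and 64.55 in KO 16 (mm9 chromosome 10, 128371669 to 128395340). Both KO libraries were above every WT library, KO 16 by far. Only 8 to 20 reads stood behind each WT value, and 24 and 71 behind the KO values. The log2 change was 1.68 ± 0.69 (SE; limma, adjusted p = 0.102), or 0.71 relative to the median gene. In corrected levels KO 13 was at 6.95, inside the WT range of 3.72 to 8.07, and KO 16 at 29.03. The higher level after subtraction was therefore that of KO 16 alone, where the background equalled 54.9% of the Itga7 tags. The authors' deposited table lists Itga7 as higher, with a log2 fold change of 2.5 and a p-value of 1.98e-04.

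Markers of other cells also differed in the KO libraries. The summed tags of 7 skeletal muscle markers, in corrected levels, were 65.4 to 130.0 in the WT libraries, 132.2 in KO 13 and 177.3 in KO 16. In KO 16, 5 of the 7 were above every WT library and 2 inside the WT range. In KO 13, 4 were above, 2 inside and 1 below. Of the 14513 genes tested on this scale, 37.3% were above in KO 16 and 24.4% in KO 13. Those genes had a mean of at least 5, which 4 of the 7 muscle markers passed. Before correction Myf5 was at 0 in 2 WT libraries and Myog in 1. The 5 surface epithelium markers summed to 17.9 to 31.2 in WT, 47.7 in KO 13 and 151.9 in KO 16. Trp63 alone gave 23.21 of the KO 13 sum and 93.45 of the KO 16 sum. Its WT mean of 0.32 tags per kilobase lay within the WT background range of 0.159 to 0.396. Above every WT library were 4 of the 5 markers in KO 13 and all 5 in KO 16. Only 2 of the 5 passed the mean of at least 5. Before correction Krt15 was at 0 in 1 WT library and Krtdap in 2. The part of such cells in the Itga7 value was not tested.

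Itga3, the third laminin receptor chain, is prominent in the basal side of epithelia. It had 41.82, 57.27 and 71.82 tags in the WT libraries, 94.55 in KO 13 and 126.36 in KO 16 (mm9 chromosome 11, 94906196 to 94937628). Both KO libraries were above every WT library, but relative to the median gene the change was -0.01 (limma, adjusted p = 0.232). In corrected levels KO 13 was at 52.85, inside the WT range of 41.09 to 70.96, and KO 16 at 79.13. In the authors' deposited table Itga3 is higher, with a log2 fold change of 2 and a p-value of 2.51e-04. The authors' deposited table thus lists 2 of the 9 genes as higher and 1 as lower, where it lists 2.84% of all gene names as higher and 2.25% as lower. That table gives no value for the single libraries, and Itgb1 is not among its 1140 entries.

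Of the fibronectin and RGD receptor chains, Itga5 and Itgav lay near the median gene and Itga8 above it. Itga5, which with beta 1 forms the main fibronectin receptor, had 32.73, 49.09 and 36.36 tags in WT, 66.36 in KO 13 and 85.45 in KO 16 (mm9 chromosome 15, 103175118 to 103196779). Its relative log2 change was -0.03 (limma, adjusted p = 0.26). In corrected levels KO 13 was at 37.22, inside the WT range of 34.95 to 41.95, and KO 16 was above it at 52.90.

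Itgav pairs with beta 1 and with beta 3, 5, 6 and 8, the latter receptors being activators of latent TGF-beta. It had 78.18, 154.55 and 94.55 tags in WT, 158.18 in KO 13 and 218.18 in KO 16 (mm9 chromosome 2, 83565354 to 83647073). Its relative log2 change was -0.15 (limma, adjusted p = 0.281). In corrected levels KO 16, at 95.58, equalled the WT mean of 95.6, and KO 13 was at 79.10 against a lowest WT library at 86.59.

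Itga8, which binds nephronectin, was barely detected in its short region (mm9 chromosome 2, 12223673 to 12233942). It had 1, 10 and 2 reads in the WT libraries, 10 in KO 13 and 29 in KO 16. The background predicts 15.39 tags there in KO 16, against 26.36 observed. The log2 change was 2.13 ± 0.83 (SE; limma, adjusted p = 0.0892). Its mean was below the minimum of 5 once background was subtracted, so 8 of the 9 genes passed that filter.

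Itga4 encodes the close relative of alpha 9 that binds VCAM1. It had 34.55, 72.73 and 66.36 tags in WT, 80.91 in KO 13 and 157.27 in KO 16 (mm9 chromosome 2, 79096383 to 79173271). The background equalled 73.3% of its tags in KO 16. In corrected levels KO 13 was at 29.26 and KO 16 at 41.99, both inside the WT range of 22.65 to 57.47. Its relative log2 change was 0.05 (limma, adjusted p = 0.208).

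**Figure D4:**
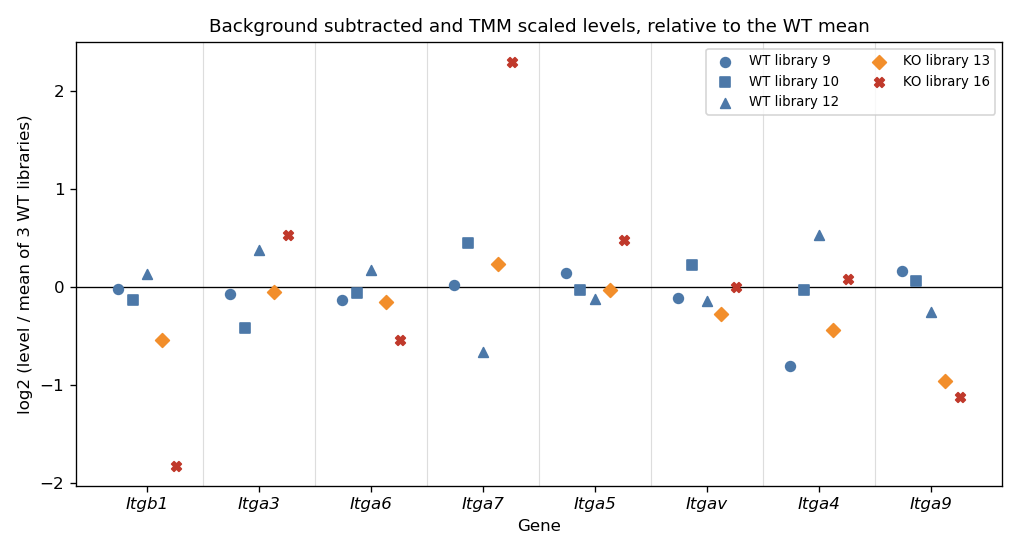
log2 ratio of the corrected level (background subtracted, TMM scaled) to the WT mean for 8 genes (Itga8 was left out because its subtracted level is 0 in WT library 9); each point is 1 library. Itgb1 lies at -0.54 in KO 13 and -1.82 in KO 16, Itga9 at -0.96 and -1.12, and Itga7 at 0.23 and 2.29.

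Counted over the 9 genes, 0 passed an adjusted p under 0.05 in limma, as did 0 of all 19313 genes (a background of 0%). At an unadjusted p under 0.05, 2 of the 9 were higher (Itga7 and Itga8) and 0 lower, where 29.2% of all genes were higher and 0.0207% lower. Of the 9 genes, 3 were above and 6 below the median gene, with a median relative change of -0.03. Before correction, both KO libraries lay above every WT library for 6 of the 9 genes, against 50.2% of all genes, and below for 0, against 0.202%. For KO 13 alone 7 of 9 were above and 0 below, against 73.3% and 1.46% of all genes. For KO 16 alone 7 of 9 were above and 2 below (Itgb1 and Itga9), against 72.9% and 7.86%. In corrected levels both lay below for 3 of 8 (Itgb1, Itga6 and Itga9), against 8.3% of all genes, and above for 0, against 7.01%. The comparisons of KO 13 and of KO 16 share the same WT libraries. For KO 13 alone 4 of 8 were below (the same 3 genes and Itgav), against 20.9% of all genes. For KO 16 alone 3 of 8 were below, against 46.3%, and 3 were above (Itga3, Itga5 and Itga7), against 37.3%.

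Before correction, KO 13 lay above every WT library in Itgb1, as it did for 73.3% of all genes. In corrected levels it lay below every one, as it did for 20.9%. The calls turned on whether KO 13 was kept. Without it, the quasi-likelihood test of edgeR on recovered reads called Itgb1 (relative log2 change -2.28, adjusted p = 0.000214) and Itga9 (-1.85, adjusted p = 0.00965) lower and Itga7 (1.21, adjusted p = 0.0177) higher. That fit called 23.6% of all genes lower and 20.9% higher, and it assumes that the lone KO 16 varies like the WT libraries. On the corrected levels limma without KO 13 called Itgb1 alone of the integrin genes it tested (-1.65, adjusted p = 0.0107), where 19.5% of all genes were called lower and 5.96% higher. Without KO 16 instead, neither fit called any of the 9 genes, and Itgb1 was at -0.55 and -0.58.

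Markers of the cells that carry these receptors differed between libraries. In corrected levels the 8 mesenchymal markers, collagens and factors such as Twist1 and Foxc1, summed to 928.4 to 1041.8 in the WT libraries, 782.9 in KO 13 and 460.7 in KO 16. The 10 pituitary progenitor markers summed to 746.5 to 917.4 in WT, 1181.5 in KO 13 and 502.8 in KO 16. The 8 endothelial markers summed to 374.2 to 415.8 in WT, 363.5 in KO 13 and 628.7 in KO 16. No gene of these 3 lists was at 0 in any library, and each list had 0 genes past the threshold. Members of each list went different ways. Of all 14513 genes tested on this scale, 20.9% lay below and 24.4% above every WT library in KO 13. In KO 16, 46.3% lay below and 37.3% above. Of the 8 mesenchymal markers 6 lay below every WT library in KO 13 and 6 in KO 16, while Foxc1 was above in KO 13, at 30.42 against 24.57 to 26.34 in WT. Col3a1 alone gave 384.70 of the KO 13 sum. Of the 10 progenitor markers 8 were above every WT library in KO 13 and 2 inside the WT range, Sox2 among the latter at 46.63. In KO 16, 8 of them were below and 2 above. Of the 8 endothelial markers 6 were inside the WT range in KO 13 and 2 below it. In KO 16, 5 were above, 1 was inside and 2 were below, and the latter included Kdr, the endothelial VEGF receptor gene, at 32.58 against 56.76 to 66.84 in WT. The part of these cells in the integrin values was not tested.

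The remaining lists were small. The 6 listed mural markers summed to 295.8 to 346.1 in WT, 272.6 in KO 13 and 308.0 in KO 16, and the 7 neural markers to 641.6 to 792.3, 517.8 and 269.2. Map2 alone gave 454.39 to 485.83 of the neural sum in WT, 364.74 in KO 13 and 83.35 in KO 16. In each KO library 4 neural markers were below every WT library, and 1 was above in KO 16. Of the mural markers 1 was below in KO 13, while 3 were below and 3 above in KO 16. Of the 14513 genes tested, 20.9% were below in KO 13, and 46.3% were below and 37.3% above in KO 16. The 7 listed macrophage markers summed to 46.4 to 65.1 in WT, 47.2 in KO 13 and 109.0 in KO 16, with Cd68 at 0 in 1 WT library. The 7 erythroid markers summed to 303.6 to 521.8, 202.7 and 651.8, with Hbb-bh1 at 0 in 1 WT library. Both blood cell sums were highest in KO 16. There 4 of the 7 macrophage and 4 of the 7 erythroid markers were above every WT library, against 37.3% of the genes tested. The genes tested had a mean of at least 5, which 5 mural, 7 neural, 3 macrophage and 3 erythroid markers passed. Hba-x, an embryonic globin gene, gave 485.39 of the erythroid sum in KO 16, and Alas2 and Hbb-y were inside the WT range. The macrophage gene C1qa was also inside it, and 2 macrophage markers, Aif1 among them, were at 0 in KO 16 on this scale.

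By the profile over the 5 libraries, the genes most like Itgb1 were Pcbp2, an RNA-binding protein gene, Nmral1, Cdh11, a cadherin of mesenchyme, Nit1 and Igfbp5, a secreted binding protein for insulin-like growth factors. Likeness was the root mean square difference of centred log2(value + 1), and it was 0.102 for Pcbp2 and 0.121 for Igfbp5 among 10932 named genes with a mean of at least 20 tags. Cdh11 had 487.27, 920.91 and 905.45 tags in WT, 998.18 in KO 13 and 382.73 in KO 16, the same order as Itgb1 apart from the 2 highest WT libraries. Of the alpha genes Itga9 was the closest to Itgb1 (0.33, with 8.32% of those genes closer) and Itga8 the farthest (1.63, with 97.6% closer). Itga6 was next to Itga9 at 0.59, and the other chains were at 0.82 or more.

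Other integrin subunits, which pair with other chains or with beta 1 in collagen receptors, lay above the median gene in 14 of 15 listed genes, with 0 called. Their median relative log2 change was 0.35, and 0.54 on the corrected scale. The beta 8 gene Itgb8, a partner of alpha V, had 76.36, 140.91 and 106.36 tags in WT, 201.82 in KO 13 and 160 in KO 16, and a relative log2 change of -0.20. Of the other subunits it had the highest WT level per kilobase (1.44 ± 0.43, SD, n = 3), followed by Itgb5 (relative log2 change 0.01), Itga10 (0.47) and Itga11 (0.20). The summed corrected levels of the 15 genes were 350.2 to 466.4 in WT, 357.8 in KO 13 and 779.9 in KO 16. In KO 16, 13 of the 15 were above every WT library, 1 was inside the WT range and 1 below. Of all genes 37.3% were above and 46.3% below there. The background equalled 43.9% to 78.2% of the KO 16 tags of these 15 genes. In KO 13, 3 were above, 6 inside and 6 below, against 24.4% of all genes above and 20.9% below. Itgb8 was the gene below in KO 16, with corrected levels of 88.21, 102.07 and 100.33 in WT, 110.38 in KO 13 and 48.03 in KO 16. The authors' deposited table lists 1 of the 15, the leukocyte subunit gene Itgb7, as lower, with a log2 fold change of -1.09 and a p-value of 9.81e-05. In corrected levels Itgb7 was at 0.23 times the WT mean in KO 13 and 2.68 times in KO 16.

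Proteins that bind integrin tails, and matrix ligands, had 0 genes past the threshold among 12 and 16 listed genes. Of the tail-binding genes 4 were above and 8 below the median gene, with a median of -0.48, which was -0.15 on the corrected scale. Flna, which encodes the actin crosslinker filamin A, had 360, 643.64 and 577.27 tags in WT, 875.45 in KO 13 and 246.36 in KO 16 (relative log2 change -1.11). Like Itgb1 it was highest in KO 13 and lowest in KO 16 before correction. Over all genes at that stage KO 13 lay above every WT library for 73.3%, and KO 16 below every one for 7.86%. Nisch, which binds alpha 5, was at -0.96, the beta 1 recycling adaptor gene Snx17 at -0.73 and the talin gene Tln1, whose product activates integrins, at -0.43. In corrected levels these 3 genes and Flna were below every WT library in KO 16 only. KO 13 was inside the WT range for Flna, Nisch (371.52) and Tln1 (183.21), and above it for Snx17, at 72.23 against 44.49 to 57.12. Over the 12 genes 7 were below in KO 16 and 3 in KO 13, against 46.3% and 20.9% of all genes. In each KO library 3 of the 12 were above, against 37.3% of all genes in KO 16 and 24.4% in KO 13.

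Of the ligands 5 were above and 11 below the median gene, with a median of -0.05. Col1a1, a collagen I chain, had 92.73, 175.45 and 108.18 tags in WT, 123.64 in KO 13 and 106.36 in KO 16. Its corrected level was at 112.39 to 155.48 in WT and at 77.51 and 84.06 in the KO libraries, below every WT library in both. The relative log2 changes were -1.04 for Col1a1, -0.70 for Fn1 (fibronectin), -0.51 for Lamc1 and -0.44 for Lamb1 (laminin chains). Fn1, Lamc1 and Lamb1 were each inside the WT range in KO 13 and below it in KO 16 on that scale. The 16 ligands summed to 1758.5 to 2209.4 in WT, 1714.8 in KO 13 and 2011.5 in KO 16. In KO 16, 6 of the 16 were below, 4 inside and 6 above, against 46.3% of the genes tested below and 37.3% above. In KO 13, 4 were below, 10 inside and 2 above, against 20.9% and 24.4%. The genes tested had a mean of at least 5, which 14 of the 16 ligands passed.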

How the data were processed

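The labels' protocols describe total RNA of 5 pituitary samples, depleted of ribosomal RNA and sequenced as strand-specific libraries. Bowtie2, HOMER, edgeR and the build mm9 appear in the submitters' processing notes, without roles. Per the file headers, the authors deposited a normalized signal, scaled to 10000000 total tags per sample. They also deposited a table of changed genes with a log2 fold change, linear fold (ratio) columns, a p-value of unstated adjustment, and a score per genotype without a unit. The plus strand is given for all 21022 regions, so antisense transcripts cannot be told apart.

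Values were whole multiples of 1 read (100.00% within 0.01 reads, for 11000000 total tags). The main test was limma 3.58.1 in R 4.3.3, with its trend option, on log2(value + 1) of 19313 genes with a mean of at least 1, Benjamini-Hochberg adjusted at 0.05; all 9 integrin genes passed that filter. Such fold changes understate those of low genes. edgeR 4.0.16 and DESeq2 1.42.0 on recovered reads, other scalings, filters and pseudocounts, the shortest region and leaving out each library were alternatives. Background came from 408 autosomal olfactory and vomeronasal receptor genes. Scripts were tested on simulated data.

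The genes, lists and tests were chosen with earlier results of these data known. The rule named all integrin genes, the 4 genes of highest WT level per kilobase in each of 3 pathway lists, and the 5 genes most like Itgb1. Marker genes were named only as examples of their lists. No sex term was fitted.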

Additional observations from a re-analysis of the deposited data

How the results depend on the processing

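With limma as described, and in the other scalings, filters, pseudocounts and tools listed for these data, each library left out included, 0 of the 9 integrin genes passed the threshold, and Itgb1 stayed below the median gene, at -1.39 to -1.08 over the processing alternatives and -2.26 to -0.53 with 1 library left out. The count of all called genes was 0 except for 1 with background subtracted (1264 at an unadjusted p under 0.05) and 23 with DESeq2 (351 at an unadjusted p under 0.05). In limma 5636 of 19313 genes had an unadjusted p under 0.05. In alternatives added after the data were seen, the count was 3682 without KO replicate 13 and 3 without KO replicate 16 with background subtracted and TMM factors, and 7945 and 3 with edgeR. Of the integrin genes these fits without KO replicate 13 called 1 and 3, with Itgb1 at -1.65 and -2.28. Itga6, Itga7, Itga8 and Itga9 kept their direction in every fit that held them, Itga9 at -1.39 to -0.93 over the processing alternatives. The other 4 lay so close to the median gene that their direction turned. Itga3 was at 0.01 without a filter and with a mean of at least 5, 0.00 with the shortest region, 0.13 with a pseudocount of 5, 0.32 with background subtracted and 0.37 with TMM factors too. It ranged from -0.18 to 0.24 with 1 library left out and was at 0.72 with background subtracted and TMM factors without KO replicate 13. Itga4 was at -0.01 with TMM factors and -0.04 with background subtracted and with DESeq2, ranging from -0.26 to 0.25 with 1 library left out, and at -0.38 and -0.29 in the added fits without KO replicate 16. Itga5 was at 0.09 with a pseudocount of 5, 0.27 with background subtracted, 0.32 with TMM factors too, 0.01 with edgeR and 0.63 in the added limma fit without KO replicate 13. Itgav was at 0.02 with a pseudocount of 5 and 0.17 in that added fit. The cause was not tested. The WT and KO libraries share no replicate numbers, and the litter of each library was not known here, so no paired analysis was made. With 2 KO libraries that differ from each other more than the WT libraries do in Itgb1, and with 1 to 29 reads behind Itga8 and 8 to 71 behind Itga7, small changes were not detectable at this depth.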
